A study of Homo sapiens with 6 samples.

Results

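The CpGs described here lie in the HOXD cluster of human chromosome 2, in the 120 kb at chr2:176940000-177060000 (hg19). A CpG was taken when its reads, summed over both strands, came to at least 10 in at least 2 SAM libraries and at least 2 control libraries. This held for 589 of the 1147 HOXD CpGs listed in any library, and for 686608 CpGs over all chromosomes. Of these HOXD CpGs, 332 reached 10 reads in all 6 libraries, against 336571 over all chromosomes. The DNA came from PC-3, a cell line established from a human prostate carcinoma. One group of cells received 160 µM S-adenosylmethionine (SAM), the methyl donor of the cell's methyltransferases, for 5 days, and the control group received PBS, a buffered salt solution, for the same 5 days. Each group has 3 libraries, and DNA methylation was read by bisulfite sequencing, which converts unmethylated but not methylated cytosine. The labels do not say whether replicates were separate cultures of this one line, so the p-values measure only the spread between these libraries, which may be technical.

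HOX genes encode homeodomain transcription factors that set position along the body axis, and their order along the cluster follows the order in which they act. EVX2 and HOXD13 stand at the posterior end and HOXD1 at the anterior end, with the non-coding RNA gene HAGLR next to HOXD1. CpG islands cover much of the cluster. In many cells they are kept free of DNA methylation, often under Polycomb repression, and in tumours and cultured cell lines many of them gain methylation.

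Promoters were placed by sequence, because gene coordinates of hg19 were not used here. For 12 of 15 gene names of the cluster RefSeq gave 15 promoter sequences of 300 bases (GRCh38.p14), and 8 of them, from 6 genes, were placed on the listed hg19 positions by the spacing of their CpGs. Each placed sequence matched 13 or more listed CpGs, and its next best place matched at most 6. No other sequence matched more than 6, so EVX2, HOXD12, HOXD4, HOXD3, HOXD-AS2, HAGLROS and the fourth HAGLR sequence have no position here. HOXD9 and the microRNA genes MIR10B and MIR7704 had no promoter sequence and have no position either. The 250 bases before the starts of HOXD13, HOXD11, HOXD10 and HOXD1 are printed because their CpGs covered the range from mostly unmethylated to almost fully methylated. All are on the plus strand, 5′ to 3′, and capitals mark the CpGs that met the read rule. The hg19 places are chr2:176957199-176957448 for HOXD13, chr2:176971758-176972007 for HOXD11, chr2:176981256-176981505 for HOXD10 and chr2:177053146-177053395 for HOXD1.
HOXD13 upstream: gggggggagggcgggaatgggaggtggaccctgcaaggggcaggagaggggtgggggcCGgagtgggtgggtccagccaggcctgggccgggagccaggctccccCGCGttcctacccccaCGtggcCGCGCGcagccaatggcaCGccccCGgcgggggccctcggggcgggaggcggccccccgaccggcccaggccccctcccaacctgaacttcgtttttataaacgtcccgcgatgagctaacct
HOXD11 upstream: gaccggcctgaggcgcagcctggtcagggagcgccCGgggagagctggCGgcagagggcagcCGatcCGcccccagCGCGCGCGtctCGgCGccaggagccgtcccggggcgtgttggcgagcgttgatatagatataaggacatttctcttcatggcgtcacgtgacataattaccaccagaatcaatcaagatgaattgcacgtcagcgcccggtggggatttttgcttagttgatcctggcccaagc
HOXD10 upstream: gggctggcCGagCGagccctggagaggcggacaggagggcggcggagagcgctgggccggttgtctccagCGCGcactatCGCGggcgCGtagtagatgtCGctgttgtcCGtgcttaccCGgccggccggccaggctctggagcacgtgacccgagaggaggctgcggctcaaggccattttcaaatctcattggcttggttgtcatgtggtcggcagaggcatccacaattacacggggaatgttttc
HOXD1 upstream: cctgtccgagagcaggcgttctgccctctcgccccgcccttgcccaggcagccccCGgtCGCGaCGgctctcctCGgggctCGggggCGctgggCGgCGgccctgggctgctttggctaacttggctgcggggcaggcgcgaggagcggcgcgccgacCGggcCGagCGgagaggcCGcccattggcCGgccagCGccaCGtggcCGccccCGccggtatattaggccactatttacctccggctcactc
The capitals number 9 of 21 CpGs for HOXD13, 10 of 23 for HOXD11, 10 of 23 for HOXD10 and 18 of 31 for HOXD1. The read CpGs stand in blocks, so large stretches before each start, including the last bases before it, carry no value.

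Read depth differed between libraries. Over the HOXD CpGs of the rule the summed reads ranged from 19095 in control replicate 2 to 205967 in control replicate 3. At the 332 CpGs common to all libraries SAM replicates 1 to 3 had medians of 220.5, 55 and 127.5 reads, and control replicates 1 to 3 had 253, 31 and 244.5. Replicate 2 of each group therefore has the least precise levels. The libraries also differed in which CpGs were deeply read. Correlation of log2 coverage across all common CpGs, used here only as a description, put SAM replicates 1 and 2 with control replicates 1 and 3 (coverage set A) and SAM replicate 3 with control replicate 2 (coverage set B). SAM replicate 2 was the least clear member, with r of 0.665 to 0.804 to the other libraries of set A and 0.569 to 0.64 to those of set B. Across the 332 CpGs, Pearson's r of methylation levels between 2 libraries was 0.91 to 0.984. These CpGs are not independent, since neighbours share reads. No pair of libraries agreed within counting noise, with a chi-square per degree of freedom of 2.44 to 5.64 over HOXD CpGs.

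The CpGs that missed the rule were at high levels. The 558 HOXD CpGs outside it had a median level of 92.6%, and the 248 of them read in 3 libraries had 94.8%. Inside it, the median was 90.7% over the 120 CpGs read in 4 libraries, 86.2% over the 137 read in 5 and 72.3% over the 332 read in all 6. CpGs read in every library therefore sat lower than those read in fewer.

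HOXD CpGs were more methylated than the common CpGs of the genome in every library. The mean level over the 332 HOXD CpGs was between 57.4% and 60.2% in the 6 libraries, against 38.3% to 38.5% over all 336571. The difference was 20.4 percentage points (SD 0.995 over 6 libraries), positive in 6 of 6 (exact two-sided sign-flip permutation p = 0.03125, the smallest that 6 libraries allow; Benjamini-Hochberg adjusted over 4 measures, 0.03125). CpGs over 80% made up 44.6% to 50.3% of the HOXD CpGs per library, and CpGs of 20 to 80% made up 21.4% to 27.1%. Over all chromosomes these shares were 31.8% to 32.4% and 12.3% to 13.7%. CpGs under 20% took 25.6% to 31.9% in HOXD and 54.5% to 55.3% over all. Each of the 3 shares differed in the same direction in all 6 libraries, with the same exact sign-flip p of 0.03125. The mean and the 3 shares summarise the same levels, from libraries of a single cell line. This p therefore measures how steadily the HOXD difference recurred between libraries, not how unusual HOXD is among regions. Counting every CpG of the rule, 121 of the 589 HOXD CpGs had a mean level under 20%, 159 had 20 to 80% and 309 had over 80%. With the 2 shallowest libraries left out these numbers became 116, 160 and 313.

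**Figure D1:**
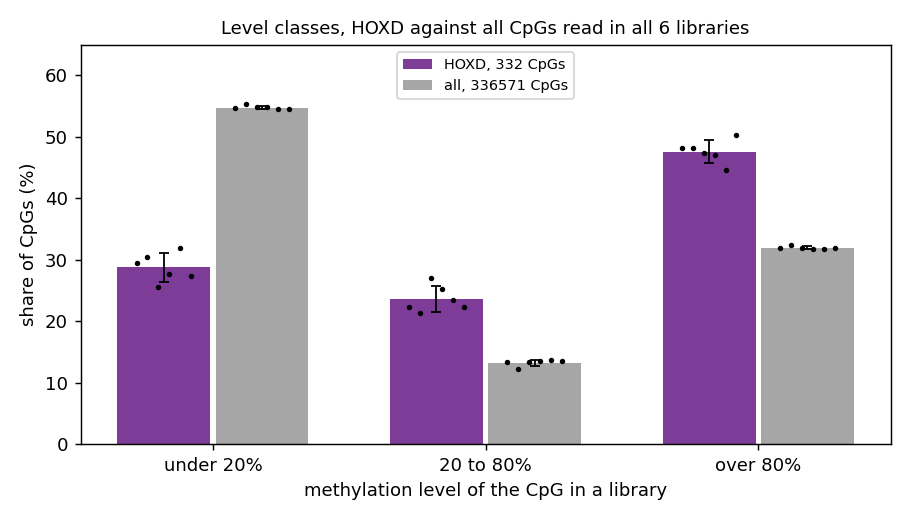
Share of CpGs (%) in 3 classes of methylation level, for the 332 HOXD CpGs and all 336571 CpGs read in all 6 libraries; bars are means over 6 libraries with the SD, and points are libraries. In each library HOXD has a smaller share under 20% and larger shares in the other classes.

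The high level was not even along the cluster. CpGs with gaps of at most 500 bases were joined into 35 runs, of which 5 had a mean under 20%, 10 had 20 to 80% and 20 had over 80%. Before the HOXD13 start, where the RefSeq table orders EVX2, 90 of 137 CpGs were over 80%, with a median of 93.7%. From the HOXD13 start to the HOXD11 start the order of classes changed, with 18 of 95 over 80%, 52 in the middle class and a median of 47.0%. From HOXD11 to HOXD10 the median was 90.8% over 45 CpGs, and from HOXD10 to HOXD8 it was 87.3% over 67, with 0 under 20%. From HOXD8 to HOXD1, which by the RefSeq order holds HOXD4 and HOXD3, 78 of 210 CpGs were under 20% and 114 over 80%, leaving 18 between. The 35 CpGs after the HOXD1 start had a median of 82.2%. The longest stretch without a CpG of the rule ran 13005 bases, from 177040196 to 177053201.

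**Figure D2:**
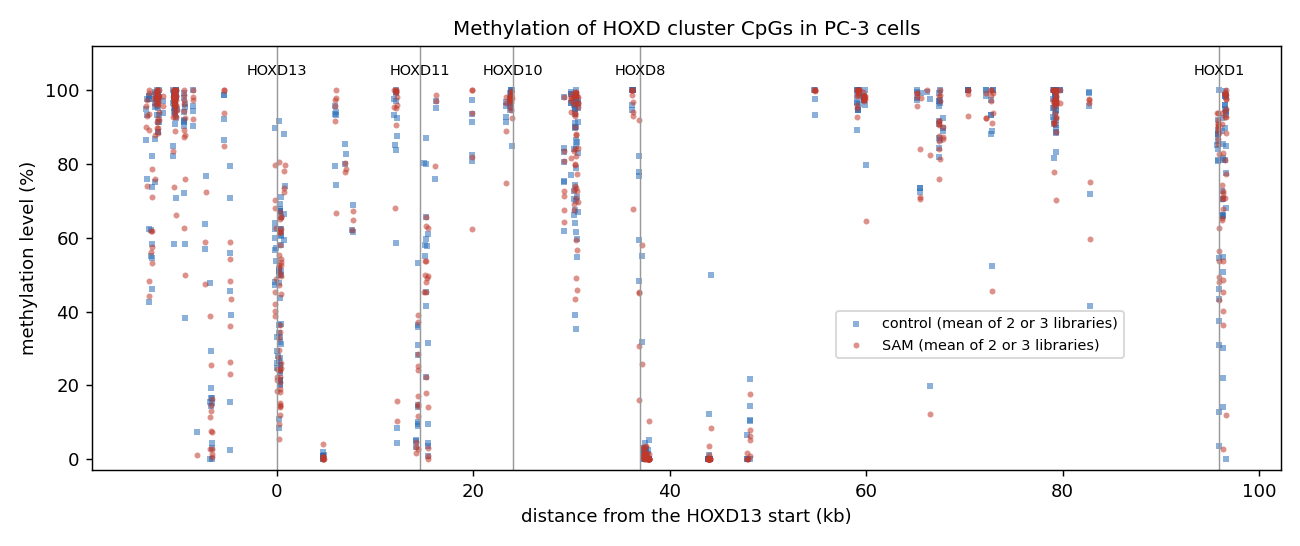
Methylation level (%) of the 589 HOXD CpGs against distance from the HOXD13 start (kb); circles are SAM means and squares control means over the libraries that read the CpG, and vertical lines mark placed starts. Both groups trace the same alternation of high and low blocks, with low blocks after HOXD8 and intermediate CpGs around HOXD13.

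For comparison between libraries, the CpGs read in all 6 were joined the same way into 17 segments of at least 5 CpGs, which hold 310 of the 332. A segment's level is the mean of its CpG levels. Of the 17 segments, 7 had a mean over 80%, 5 of 20 to 80% and 5 under 20%. The 3 highest were chr2:177016619-177017239 (97.9%), chr2:176981215-176981376 before HOXD10 (96.9%) and chr2:177036552-177036809 (96.3%). The 3 lowest were chr2:177001380-177001538 (0.702%, and 0.248% without control replicate 2), chr2:176994682-176995346 after the HOXD8 start (2.24%) and chr2:177005611-177005638 (9.51%). From the last of these to the next segment, 10981 bases on, the level stepped up by 88.4 percentage points. Into the segment after HOXD8 the level stepped down by -84.7 points, over the 6554 bases from the segment before that one. CpGs of the rule not read in all 6 libraries lie inside both gaps, so the changes themselves spanned fewer bases. At chr2:176993628-176993687, before HOXD8, 8 such CpGs averaged 97.0%. At chr2:177012191-177012220, inside the step up, 4 averaged 98.6%. Levels of the segment after HOXD8 were 2.16, 2.86 and 1.65% with SAM and 2.11, 2.41 and 2.24% in controls, so the groups overlapped.

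HOXD13, the most posterior gene of the cluster, had intermediate methylation. In the segment chr2:176957304-176957914, with 47 CpGs, the SAM libraries were at 36.9, 33.3 and 42.6% and the controls at 42.0, 29.7 and 51.9%, each in the order of the replicate numbers, the order used throughout. The groups overlapped, and both the lowest and the highest value were controls. The spread inside the groups, 8.56 percentage points, was the largest of all 17 segments. By the mean of CpG levels the difference, SAM minus control, was -3.62 points, with -11.9 inside coverage set A and 12.9 inside set B. The printed sequence holds 8 CpGs common to all libraries, 145 to 99 bases before the start, and 2 more common CpGs follow the start within the RefSeq promoter. The mean of these 10 was 45.4, 33.97 and 58.5% with SAM and 53.9, 23.1 and 75.1% in controls. Only 2 of these 10 had 20 reads in every library, and their mean was 25.2%. They are the 2 past the start, at 18 and 24 bases, so this value does not cover the 8 of the printed sequence.

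Past the HOXD13 start a profile recurred in each library. The CpG at 176957725, 276 bases past the start, was at 44.2, 45.7 and 52.0% with SAM and 50.5, 47.8 and 44.9% in controls. The CpG at 176957739, 14 bases further, was at 10.9, 10.8 and 6.86% with SAM and 15.2, 0 and 10.2% in controls. The drop was present in all 6 libraries, at 20 to 607 reads per library. At 176957768 the level was 47.0% again, with 49.2, 55.2 and 46.1% in SAM and 48.6, 31.6 and 51.1% in controls. The groups overlapped at each of these 3 CpGs. Between the HOXD13 and HOXD11 starts, 8 CpGs at chr2:176962180-176962227 were nearly unmethylated, with mean levels of 0 to 3.3% over the 5 libraries that read them.

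HOXD11, a posterior gene that acts in limb and kidney, had low levels before its start. The segment chr2:176971589-176971845 was at 14.1, 14.2 and 15.1% with SAM and 13.5, 30.4 and 13.4% in controls. Control replicate 2 stood above the other 5 libraries, which lay between 13.4 and 15.1%. That library had as few as 10 reads at CpGs of this segment. Weighted by coverage the segment's level was 8.64% instead of 16.8%, and over its 3 CpGs with 20 reads in every library it was 3.87%. Those 3 lie 419 to 361 bases before the start, outside the printed sequence, so 3.87% describes other positions than that sequence. The 8 common CpGs of the printed sequence lie 215 to 163 bases before the start, and their mean was 17.9, 18.3 and 19.8% with SAM and 16.8, 40.0 and 16.9% in controls.

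HOXD10, the next gene, was almost fully methylated before its start. The segment chr2:176981215-176981376 was at 97.0, 97.7 and 96.8% with SAM and 97.0, 96.3 and 96.6% in controls, and its spread inside the groups of 0.390 points was the smallest of the 17. The 10 CpGs of the printed sequence ran from 88.6 to 99.85%, between 242 and 130 bases before the start. Methylation was also high between HOXD10 and HOXD8. The segment chr2:176987383-176988128, with 32 CpGs, was at 88.8, 87.9 and 86.6% with SAM and 85.4, 86.3 and 86.9% in controls. Within it single CpGs had like intermediate levels in every library: at 176987711 the level was 71.3, 73.6 and 74.3% with SAM and 72.9, 75.5 and 70.0% in controls, at 106 to 2569 reads. The CpG at 176987738, close behind, was at 97.1 to 99.2% in all 6 libraries.

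HOXD8, a gene of the middle of the cluster, showed a boundary. The 5 CpGs read 143 to 122 bases before its start had mean levels of 35.4 to 86.1%, but none was read in all 6 libraries, and SAM replicate 1 had 0% at 4 of them on 17 to 19 reads. The CpG 249 bases past the start, 176994682, was at 54.8, 70.6 and 48.7% with SAM and 59.7, 50 and 55.7% in controls. At 295 bases past the start, CpG 176994728 was at 3.33, 3.13 and 2.86% with SAM and 3.03, 0 and 4.82% in controls. In all 6 libraries the level fell between these CpGs, from 48.7% or more to 4.82% or less, though control replicate 2 had 10 reads at each CpG. Beyond it, low levels continued, and at 20 reads in every library the segment's 25 CpGs averaged 0.911%.

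At HOXD1 and HAGLR the levels were high but mixed. The segment chr2:177053201-177054117, with 27 CpGs, was at 71.9, 79.8 and 75.7% with SAM and 70.8, 64.95 and 70.7% in controls. The SAM libraries all lay above the controls, the closest pair being 71.9 and 70.8%. The difference was 6.98 points with each CpG weighted equally, with 5.08 inside coverage set A and 10.8 inside set B. Because the groups did not overlap, both sets had to give the same direction of difference. With all reads of the segment pooled it was 1.13 points, the groups overlapped, and edgeR's quasi-likelihood test gave an unadjusted p of 0.736 (adjusted 1.0). In the printed HOXD1 sequence the 13 common CpGs averaged 66.3, 77.6 and 73.4% with SAM and 65.2, 52.1 and 65.4% in controls. Here too the groups did not overlap, with a difference of 6.66 points inside coverage set A and 21.25 inside set B. Of these 13, 4 had 20 reads in every library, and their mean over all libraries was 35.9% instead of 66.7%.

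Those 4 CpGs stand 56 to 39 bases before the HOXD1 start, in the last capitals of its sequence. Libraries of one group lay far apart at 177053351 and 177053345. At 177053340, the first of the 4, the level averaged 49.3% with SAM and 30.95% in controls (edgeR unadjusted p = 0.461). At 177053357 the level was 36.0, 56.0 and 37.0% with SAM and 3.70, 7.14 and 0% in controls, on 25 to 81 reads, and 0 of 57 reads allows up to 5.26%. At 177053351, 6 bases before it, the level was 36.0, 72.0 and 53.2% with SAM and 4.0, 34.4 and 0% in controls. At both CpGs every SAM library was above every control. At 177053345 the order broke: the level was 48.0, 44.0 and 52.4% with SAM and 100, 38.1 and 0% in controls. The controls of this CpG spanned the full scale on 27, 42 and 58 reads. Bisulfite reads of one amplified molecule cannot be told from reads of several, so the number of molecules behind these levels is not known. HAGLR, on the opposite strand, has placed RefSeq promoters on both sides of the HOXD1 start. The second one shares all its 9 CpGs with the printed HOXD1 sequence, and its 6 common CpGs, on 11 to 84 reads, averaged 45.5, 58.8 and 52.3% with SAM and 35.6, 22.95 and 37.2% in controls. The groups did not overlap, with a difference of 20.3 points (15.75 inside coverage set A and 29.35 inside set B). Its CpGs include 177053351 and 177053357, which are among those with the smallest p in HOXD. The difference was not tested, and the share of promoters without overlap over all chromosomes was not computed. The first one also shares all its 9 CpGs with the printed HOXD1 sequence, so neither is a separate observation from HOXD1. Its 7 common CpGs averaged 84.1, 93.7 and 91.5% with SAM and 90.5, 77.1 and 89.5% in controls, with overlapping groups. At the third one, past the HOXD1 start, the 9 common CpGs were read 50 times or more and averaged 72.7, 73.8 and 71.4% with SAM and 73.7, 70.2 and 72.1% in controls, with overlapping groups.

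One HOXD CpG was unmethylated amid methylated neighbours. At 177054020, 624 bases past the HOXD1 start, the level was 9.30 and 14.4% in SAM replicates 1 and 3 and 0% in all 3 controls, and SAM replicate 2 did not read it. The controls had 51, 29 and 83 reads, which allow up to 5.88, 10.3 and 3.61%. The neighbours, 11 bases before and 15 bases after, averaged 94.3% and 99.2%. Such a CpG, at least 50 points below both neighbours within 50 bases, occurred at 1 of 441 HOXD CpGs (0.227%) and 992 of 471516 over all (0.21%), a like share.

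**Figure D3:**
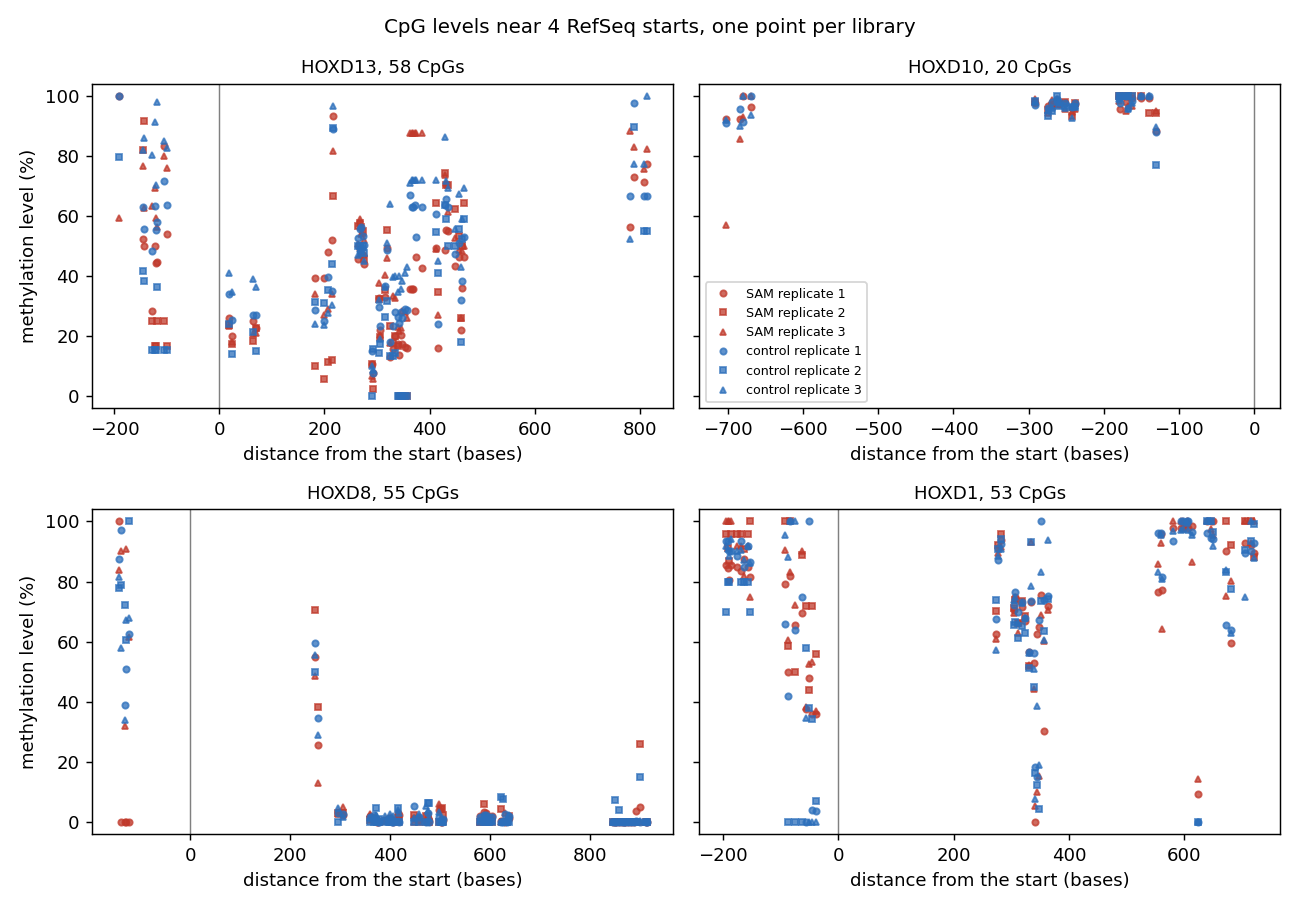
Methylation level (%) of each CpG in each library against distance (bases) from the RefSeq starts of HOXD13, HOXD10, HOXD8 and HOXD1; red symbols are SAM and blue symbols control libraries, with 1 symbol shape per replicate number. Most HOXD10 points stand near 97%, most HOXD8 points past its start lie under 5%, and single libraries lie far apart before HOXD13 and before HOXD1.

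Neighbouring CpGs differed more in HOXD than elsewhere in these descriptions. The median absolute difference between neighbours 2 to 10 bases apart was 2.79 percentage points in HOXD (2.35 to 4.0 over libraries) and 0.112 over all chromosomes. At 11 to 50 bases it was 6.63 and 1.77 points, and at 51 to 500 bases 9.59 and 3.01. The share of CpGs at middle levels, which is larger in HOXD, moves with these values, and its part in them was not tested. Between libraries of a group the SD of middle-level CpGs was not larger in HOXD, with a median of 8.69 points against 10.9 over all. CpGs over 80% had 2.19 and 2.32 points, and CpGs under 20% had 1.59 in HOXD and 0.344 over all.

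The comparison of SAM with control asks whether 5 days of added methyl donor moved HOXD methylation. The mean over the 332 common CpGs was 58.2, 59.0 and 59.4% with SAM and 59.0, 57.4 and 60.2% in controls. Both the lowest and the highest library were controls. The group means were 58.9% ± 0.610 (SD, n = 3) and 58.9% ± 1.45 (SD, n = 3). The difference of 0.0157 percentage points (SE 0.907) was smaller than the spread between libraries (exact two-sided permutation p = 0.90, where 0.10 is the smallest possible). It was -1.003 points inside coverage set A and 2.05 points inside set B. Coverage weighting gave -3.37 points, so no direction of the mean held over the settings.

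By class, the 157 CpGs over 80% were at 95.7, 96.4 and 95.4% with SAM and 95.2, 94.7 and 95.2% in controls. Every SAM library was above every control, with group means of 95.8% ± 0.492 and 95.1% ± 0.275 (SD, n = 3 each). The difference of 0.762 points (SE 0.326) gave an exact permutation p of 0.10, adjusted over 3 classes 0.30. This is the smallest p that 3 against 3 libraries can give, so no difference could have passed. The difference was 0.806 points inside coverage set A and 0.675 inside set B, where groups that do not overlap must share a direction. With 20 reads required in every library it was -0.00885. The 81 CpGs of 20 to 80% averaged 50.9% ± 1.95 with SAM and 51.3% ± 4.43 without it (SD over 3 libraries; exact permutation p = 1.0), with -3.34 points inside coverage set A and 5.42 inside set B. The 94 CpGs under 20% averaged 4.05% ± 0.781 and 4.91% ± 1.24 (SD over 3 libraries; exact permutation p = 0.40). In both of these classes the groups overlapped.

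**Figure D4:**
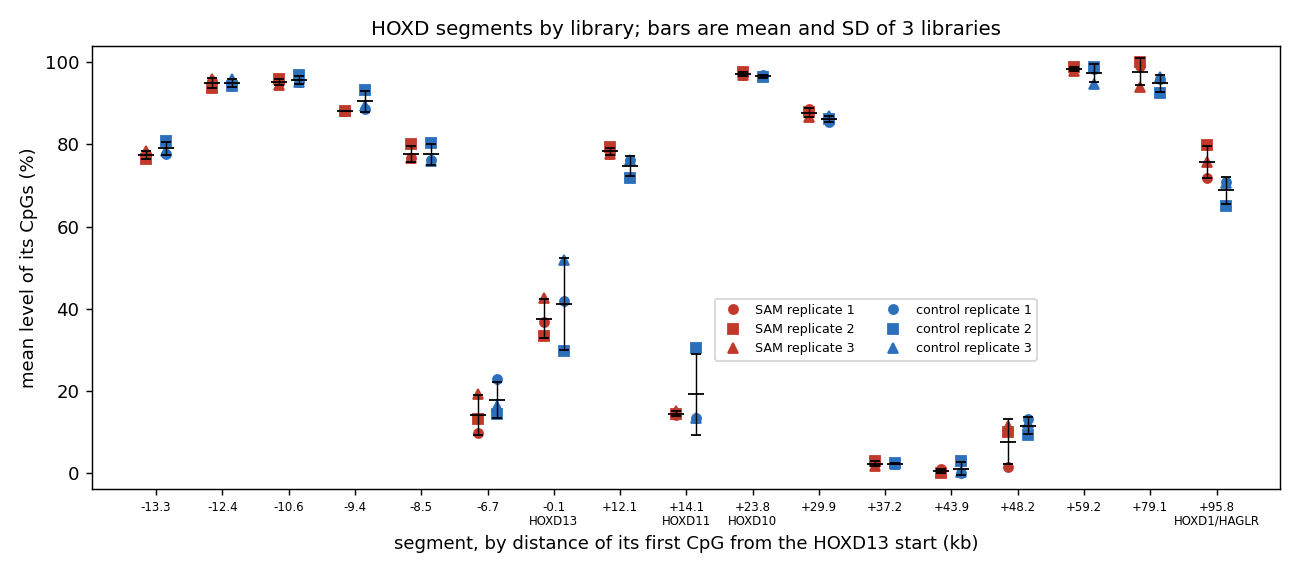
Level (%) of the 17 HOXD segments in each library, by distance of the first CpG from the HOXD13 start (kb); symbols are libraries, and bars are the mean and SD of 3 libraries. The differences between segments exceed those between groups, and control replicate 2 stands apart at the HOXD11 segment.

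No HOXD CpG passed the test of SAM against control. The edgeR quasi-likelihood test on methylated and unmethylated reads called 0 of 307 HOXD CpGs at an adjusted p under 0.05, and 0.0% of 257696 over all chromosomes. At an unadjusted p under 0.05 it gave 4 of 307 (3 higher and 1 lower with SAM), against 2.81% over all. The limma test, on 542 HOXD CpGs, gave 0 calls (0.0% over all) and 15 CpGs at an unadjusted p under 0.05, against 3.68% of 490928 over all. The quasi-binomial test gave 0 calls (0.0% over all), a smallest adjusted p of 0.394 in HOXD, and 52 of 542 at an unadjusted p under 0.05, against 10.7% over all. Under neither test was the HOXD share above the share over all. Without regard to a test, every SAM library exceeded every control at 9 of 307 HOXD CpGs (2.93%) and lay below at 6 (1.95%). The background of such CpGs was 3.53% higher and 2.87% lower, so HOXD did not stand above it in either direction.

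The 5 HOXD CpGs with the smallest p all had an adjusted p of 0.89 with edgeR. Those at 177053357 and 177053351 before HOXD1, described above, differed by 39.4 points (unadjusted p = 0.00962) and 40.9 points (0.0612). Inside coverage sets A and B the differences were 44.15 and 29.9 points at 177053357, and 52.0 and 18.8 points at 177053351. At 177054102, past HOXD1, the level was 93.0, 100 and 100% with SAM and 89.3, 90.4 and 74.8% in controls (12.8 points, unadjusted p = 0.0475). The CpG at 176981336, 170 bases before HOXD10, was at 97.7, 100 and 94.8% with SAM and 100% in all 3 controls (-2.48 points, unadjusted p = 0.037). At 176950708 the level was 5.13, 0 and 3.08% with SAM and 0% in the controls (2.74 points, unadjusted p = 0.0402), where 78, 60 and 35 control reads allow up to 3.85, 5.0 and 8.57%. The groups did not overlap at 177053357, 177053351 and 177054102. Leaving out 1 library moved 3 of these differences by over 1.5 times: 177054102 to 7.82 points without control replicate 3, 176981336 to -1.13 without SAM replicate 3, and 176950708 to 1.54 without SAM replicate 1.

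Segments gave no call either. On summed reads edgeR called 0 of 17 HOXD segments at an adjusted p under 0.05 and 0.0% of 19287 over all, and the smallest unadjusted p in HOXD was 0.226. An unadjusted p under 0.05 occurred at 0 of 17, against 3.02% over all, and limma called 0 (0.0% over all), with 0 of 17 at an unadjusted p under 0.05, against 3.8% over all. Pooled levels were higher with SAM in 8 segments and lower in 9. On pooled reads, every SAM library was above every control in 0 of 17 segments and below in 1, against 4.39% and 3.6% over all. By the mean of CpG levels it was above in 2 and below in 1, against 5.03% and 4.44% over all. The 2 were the HOXD1 segment and chr2:176969595-176969705, between HOXD13 and HOXD11, which was at 77.8, 79.4 and 77.8% with SAM and 76.1, 71.9 and 76.2% in controls (edgeR adjusted p = 1.0). The 1 was chr2:176948003-176948057, at 88.0, 88.1 and 88.1% with SAM and 88.8, 93.4 and 89.4% in controls (edgeR adjusted p = 1.0). The 5 smallest p-values, all with an adjusted p of 1.0 with edgeR, belonged to the segments named next with their differences in pooled reads. These were chr2:177036552-177036809 (2.84 points), the segment at HOXD13 (-4.74), chr2:177005611-177005638 (-3.96), the segment after HOXD8 (-0.381) and chr2:176948003-176948057 (-2.38). Each of the 5 moved by over 1.5 times when 1 library was left out. The first became 1.82 without SAM replicate 2 and 4.46 without SAM replicate 3, the segment at HOXD13 -2.96 without SAM replicate 2, and chr2:177005611-177005638 -0.870 without SAM replicate 1. The segment after HOXD8 became -0.142 without SAM replicate 3, -0.148 without control replicate 3 and -0.664 without control replicate 1, and chr2:176948003-176948057 -0.549 without control replicate 2. The segment at HOXD13 had the largest spread inside the groups. Next came 6.95 points at the HOXD11 segment and 4.65 points at chr2:176950708-176950901, which was at 9.59, 13.2 and 19.3% with SAM and 22.8, 14.4 and 16.2% in controls.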

How the data were processed

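The authors deposited 1 CpG list per library. Per the file headers, each position has a strand, a coverage, which is a read count, and percent values of C and T. Per the submitters' processing notes, CASAVA 1.8.2, FastQC 0.10.0, Bismark 0.7.4, methylKit 0.5.3 and hg19 were used, with no role stated. The sources used here do not give library type, read filters or removal of duplicates. The lowest coverage in each of the deposited lists was 10, per strand, so a strand with fewer reads is missing from a CpG. Reads copied in amplification cannot be told from molecules, so limits from counts cover counting error only.

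Methylated counts were coverage times percent C, rounded. The minus-strand base was joined to the plus-strand base before it. Library means were compared with exact two-sided permutation tests. CpGs and segments (gaps of up to 500 bases, at least 5 CpGs) were tested over all chromosomes with edgeR 4.0.16 (R 4.3.3), quasi-likelihood, Benjamini-Hochberg adjusted p under 0.05. CpGs with 1 kind of read were left out. The alternatives were limma 3.58.1, a quasi-binomial F test, 20 reads, other weights, strands, classes, gaps and tiles, a replicate block, and libraries left out. The fits were tested on simulated data with counting error only. Those data lack the added spread between these libraries, so they do not show what the fits could detect here. Python 3.11.15 with numpy 2.4.6, pandas 2.3.3, scipy 1.17.1 and matplotlib 3.10.9 did the rest.

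The CpGs and lists were chosen with earlier results of these data known. When under 5 CpGs or segments pass, the 5 with the smallest p are named, along with the 3 highest, 3 lowest and 3 most variable segments. Other single CpGs in the text were picked after their values were seen. Same-numbered libraries did not deviate together over all CpGs (r of -0.00509, 0.00846 and -0.00791), so the numbers were not taken to pair them. In HOXD alone, the best match had the same number for 3 SAM and 2 control libraries, against 1 and 0 over all CpGs. Pairing within HOXD is therefore not settled.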

Additional observations from a re-analysis of the deposited data

How the results depend on the processing

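Counts of called HOXD CpGs and segments were 0 under all alternatives run, the replicate block included. The block also left the mean difference at 0.0157 points (exact sign-flip p = 1.0) and the difference over 80% at 0.762 (p = 0.25). The deviations of same-numbered libraries in HOXD, not their levels, correlated with r of 0.0669, 0.367 and 0.324. The direction of the mean difference (0.0157) was not stable: it was -3.37 weighted by coverage, -0.521 over each library's own CpGs and -0.221 on the plus strand. The coverage sets, and leaving out both shallowest libraries, were chosen after the data were seen. They gave -1.003 in set A, -1.40 in set A with SAM replicate 2 moved to set B, and -0.799 without the shallowest libraries. For CpGs under 20% the difference (-0.857) turned to 0.0705 on the plus strand, 1.46 in set B and 0.756 in set B with SAM replicate 2. For 20 to 80% the difference (-0.418) turned to 1.496 at 20 reads, 5.42 in set B and 4.47 in set B with SAM replicate 2. Over 80% it turned to -0.00885 at 20 reads, where fewer CpGs are left. Leaving out 1 library gave -0.735 to 0.710 for the mean, -1.56 to -0.412 under 20%, -2.37 to 1.99 for 20 to 80% and 0.488 to 0.964 over 80%. The mean turned negative without SAM replicate 2 (-0.0482), SAM replicate 3 (-0.252) or control replicate 2 (-0.735), and the middle class turned positive without SAM replicate 1 (0.566) or control replicate 3 (1.99). The cause of these turns was not tested. For single CpGs, segments and promoters, 233 comparisons of a value with an alternative setting counted as the same and 7 as moved. A level counted as the same within the SD between libraries. A difference counted as the same if its sign held and its adjusted p stayed on its side of 0.05, whatever its size. All 7 were levels. At 20 reads the HOXD13, HOXD10 and HOXD1 promoters moved to 25.2, 95.8 and 35.9%, averaged over fewer CpGs. The HOXD11 segment moved to 3.87% at 20 reads and 8.64% by coverage, and the HOXD8 segment to 0.911 and 1.496%. Of the 27 values of single CpGs, segments and promoters, 9 moved by over 1.5 times when some 1 library was left out, as given beside them. Median depth at the common CpGs was lowest in control replicate 2 (31 reads) and SAM replicate 2 (55).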

Other observations

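The strands of a HOXD CpG could be compared where both were listed, which held for 13 CpGs of the rule in SAM replicate 2 and 132 in control replicate 3. Their means differed by -5.61 to 1.10 percentage points, plus strand less minus strand, over the 6 libraries. Over all chromosomes the means differed by -0.142 to -0.0648 points. The strands were more than 25 points apart at 11.4% to 24.1% of HOXD CpGs per library and at 7.05% to 9.78% over all. Among CpGs of 20 to 80% alone, where HOXD has 2 to 34 such CpGs per library, the shares were 0.0% to 45.5% in HOXD and 32.5% to 44.1% over all.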
